A study of Mus musculus with 8 samples.

Results

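The p53 target genes described here are 10 genes that the transcription factor p53 is known to switch on: Cdkn1a, Mdm2, Ccng1, Bax, Bbc3, Trp53inp1, Phlda3, Eda2r, Zmat3 and Aen. They were taken by symbol from the 21833 gene symbols of the count tables, and all 10 were found and passed the filter on low counts that left 12755 genes. The list was chosen by the level of Cdkn1a in this comparison, which was lower in arthritic muscle treated with dipyridamole than without it, and it asks whether other p53 targets shared that direction. The values of these 10 genes between the groups are therefore a description and carry no test.

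The muscle was gastrocnemius, a calf muscle, of 8 male C57BL/6J mice aged 12 weeks, each measured as 1 bulk RNA-seq library. The RA+Dipy group (n = 4) received dipyridamole at 25 mg/kg per day from day 0, on top of arthritogenic serum. The RA group (n = 4) received the serum without the drug. In both groups the serum was pooled from K/BxN mice, a cross that develops antibody-driven arthritis, and 100 µL went into the peritoneum on day 0 and again on day 2, with muscle taken on day 16. Dipyridamole blocks the uptake of adenosine into cells and inhibits phosphodiesterases, and the series title names rheumatoid cachexia, the muscle loss of arthritis, as the setting. The serum passes on the arthritis for a limited time without the recipient's own autoimmunity. Muscle of mice free of arthritis was not analysed here, and what the RA mice received in place of the drug is not stated. The sample labels give K/BxN as the genotype of all 8 mice and name dipyridamole in a protocol field of all 8, whereas titles and the series' design text separate the groups as above. In a bulk sample, fewer cells of a type and less RNA per cell cannot be told apart.

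p53 is a short-lived protein that builds up under DNA damage and other stress and then binds a paired DNA element near its target genes. Its targets hold the cell cycle, help repair DNA, set off cell death and, through Mdm2, remove p53 again. Cdkn1a encodes p21, which blocks cyclin-dependent kinases. In muscle p21 also accompanies the exit of myoblasts from the cell cycle and is induced in wasting muscle, and it can be switched on without p53, for example by MyoD or by TGF-beta signalling.

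The promoter sequences are shown because p53 acts on its targets through a DNA element near the gene. RefSeq windows on GRCm38.p6, from 250 bases before to 50 bases after a gene's start, existed for 8 of the 10 genes and for 27025 genes in all. They were searched for the p53 consensus site of 20 bases, made of a pair of abutting 10-base units, with the core C and G of each unit required and at most 2 mismatches elsewhere. The site is its own reverse complement, so reading 1 strand covers both. Cdkn1a and Ccng1, 2 of the 8 genes, held such a site, each with 1 mismatch, against 0.392% of all genes with a window. In the lines below, read 5′ to 3′ on the gene's strand, capitals mark the site.
Cdkn1a, chr17:29090908-29090967, plus strand: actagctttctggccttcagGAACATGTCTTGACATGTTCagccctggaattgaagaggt
Ccng1, chr11:40755442-40755501, minus strand: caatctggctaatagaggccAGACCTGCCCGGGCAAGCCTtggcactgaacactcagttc
The Cdkn1a site begins at position −51 from an upstream RefSeq start and lies 2841 bases before the farthest other start. The Ccng1 site begins at position −195.

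A single 10-base unit that matched the consensus in full stood in the windows of 5 of the 8 genes, against 9.55% of all genes with a window. Those 5 include Cdkn1a and Ccng1, whose units lie inside the sites above. The other members were Mdm2, Bax and Aen, shown here with the unit in capitals.
Mdm2, chr10:117710915-117710964, minus strand: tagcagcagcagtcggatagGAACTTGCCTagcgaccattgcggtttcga
Bax, chr7:45467070-45467119, minus strand: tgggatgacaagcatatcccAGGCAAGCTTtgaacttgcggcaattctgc
Aen, chr7:78895932-78895951, plus strand: aagccGGGCTTGTCCgggca
The unit begins at position −186 from the start in Mdm2, at −201 in Bax, and at position 11 after a start within an exon of Aen. Bbc3, Phlda3 and Eda2r held neither a site nor a unit that matched in full, and Trp53inp1 and Zmat3 had no window. An element farther from the start would lie outside the windows and be missed. These matches describe the letters of the windows and say nothing about binding.

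Library totals ran from 16.4 to 25.4 M (mega) counts in RA+Dipy muscle and from 16.7 to 50.6 M in RA muscle, and levels are given as CPM, a gene's count relative to its library total after TMM scaling. On that scale a count of 0 allows up to 0.0591 CPM in RA replicate 1, the deepest library, and up to 0.254 CPM in RA replicate 4 (counting error only). Muscle fibre genes such as Myh4 and Ckm summed to between 123000 and 147000 CPM in RA+Dipy muscle and between 128000 and 162000 CPM in RA muscle, so the defining genes of the labelled tissue were abundant in every library. A pair of libraries stood apart from the rest. Relative to each gene's median over the 8 libraries, RA+Dipy replicate 1 differed by more than 2-fold in 20.7% of 4757 well-expressed genes and RA replicate 4 in 41.9%, while the other 6 libraries did so in 0.0841% to 1.07%. Relative to the other libraries of their group, both followed transcript GC content, in opposite directions. For genes with GC between 33.1% and 47.3% the median deviation was 0.18 log2 units in RA+Dipy replicate 1 and −0.51 in RA replicate 4. For those between 53.5% and 75.9% it was −0.28 in RA+Dipy replicate 1 and 0.45 in RA replicate 4. Fold changes are therefore also given without 1 or both of these libraries.

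Across the whole table, edgeR's quasi-likelihood test called 0 of 12755 genes at an adjusted p under 0.05 (0% in either direction), 0 of the 10 p53 targets among them. The lowest adjusted p in the table came to 0.882. The unadjusted p lay under 0.05 for 488 genes, 3.83% of those tested, with 1.68% higher and 2.15% lower in RA+Dipy. DESeq2 and limma-voom also called 0 genes, with 740 and 379 at an unadjusted p under 0.05. Limma-voom with library weights called 133 genes (111 higher and 22 lower in RA+Dipy), of which 0 were among the 10 p53 targets. No gene below therefore rose or fell by the main test, and "higher" and "lower" refer to values.

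Cdkn1a, at chr17:29090976-29100727, was the listed target with the lowest value in RA+Dipy relative to RA. Its levels were 19.9, 19.8, 19.8 and 18.3 CPM in RA+Dipy muscle, against 41.6, 25.9, 21.9 and 55.9 CPM in RA muscle. Every RA+Dipy library lay below every RA library, the treated libraries were nearly equal, and RA replicates 4 and 1 held the high values. The means were 19.5 ± 0.788 CPM in RA+Dipy and 36.3 ± 15.6 CPM in RA (SD, n = 4 each), a log2 fold change of −0.90 (SE 0.31). The highest library was 1.09 times the lowest in RA+Dipy and 2.56 times the lowest in RA. Without RA replicate 4 the log2 fold change was −0.60 (SE 0.23), leaving out RA+Dipy replicate 1 as well gave −0.62 (SE 0.22), and with an offset for GC content it was −0.65 (SE 0.26). Non-overlapping groups in this direction were a feature of 1 of the 10 targets, Cdkn1a itself, and of 1.26% of all genes tested. Of its exon bases, 7.68% are shared with an annotated gene on the opposite strand, whose reads the non-stranded counting cannot separate.

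**Figure D1:**
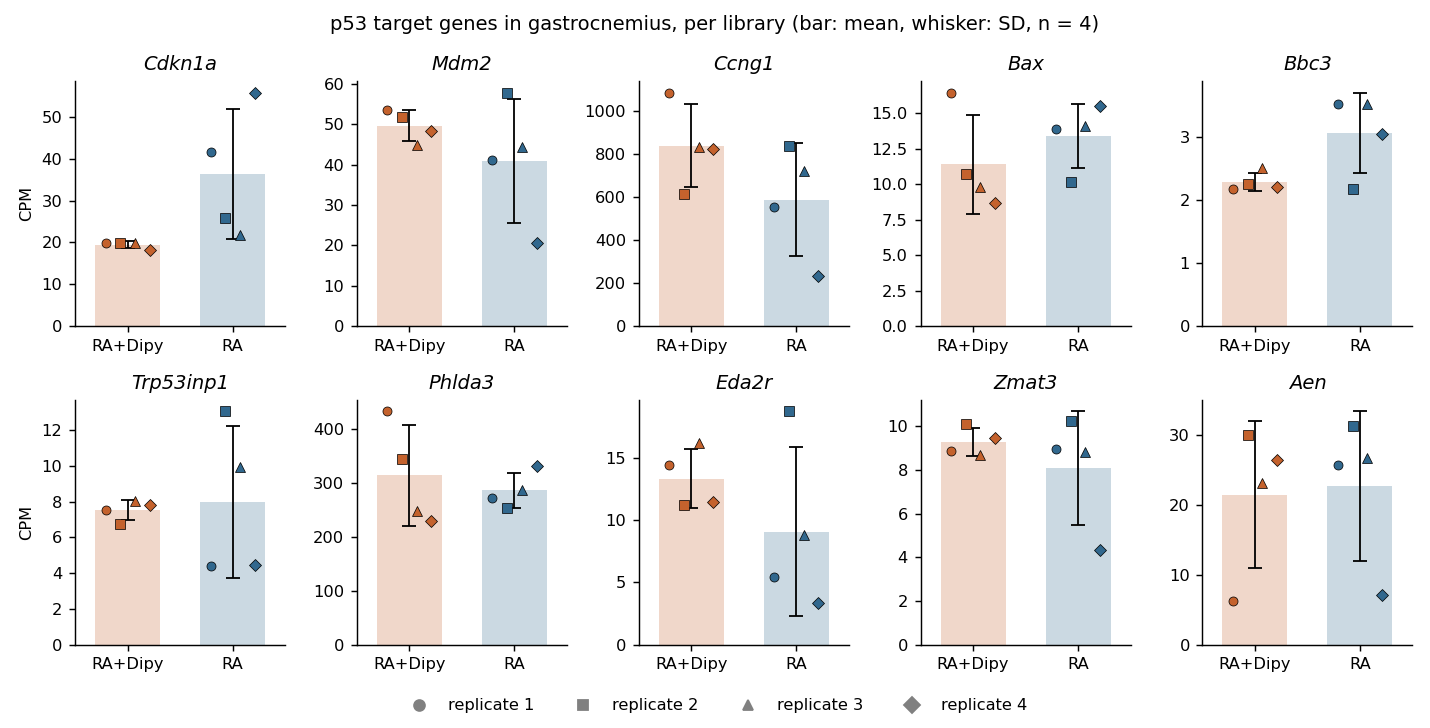
Level of each of the 10 p53 target genes in CPM (vertical axes, each starting at 0) in RA+Dipy and RA muscle, with 1 point per library, marker shape for the replicate number, bars for group means and whiskers for SD (n = 4 each). Cdkn1a, with RA+Dipy libraries between 18.3 and 19.9 CPM and RA libraries between 21.9 and 55.9 CPM, is the panel in which the groups do not overlap.

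The other 9 targets did not share a direction. Of these, 4 had a lower and 5 a higher fitted value in RA+Dipy, and their median log2 fold change was 0.13, beside 0.02 over all genes tested, of which 47.8% had a lower value. Without RA replicate 4 the median of the 9 was 0.00191, without both libraries that stood apart 0.02, and with the GC offset 0.19. In the main fit the 9 fold changes ran from −0.42 for Bbc3 to 0.55 for Eda2r, each nearer to 0 than that of Cdkn1a. Eda2r lay farther from 0 than Cdkn1a in some other fits. These were without RA replicate 2 (1.18 against −1.03), with the replicate number as a block (0.84 against −0.80) and with library weights in limma-voom (0.81 against −0.53).

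Among the targets that act on p53 or the cell cycle, Mdm2 encodes the ubiquitin ligase that marks p53 for breakdown and is its main feedback inhibitor. Mdm2 had 53.4, 51.8, 44.95 and 48.5 CPM in RA+Dipy muscle, against 41.1, 57.9, 44.3 and 20.6 CPM in RA muscle. The groups overlapped, and RA replicate 4 alone was far lower than the rest. The log2 fold change was 0.28 (SE 0.30), 0.07 without RA replicate 4 and 0.03 without both libraries that stood apart.

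Ccng1 encodes cyclin G1, an atypical cyclin that directs a phosphatase to Mdm2. It had 1084, 615, 833 and 821 CPM in RA+Dipy muscle, against 551, 838, 720 and 233 CPM in RA muscle. The means of 838 ± 192 CPM in RA+Dipy and 586 ± 263 CPM in RA overlapped within their spread, with the lowest value in RA replicate 4 and the highest in RA+Dipy replicate 1. The log2 fold change was 0.52 (SE 0.39), and 0.12 (SE 0.20) without both of these libraries. Ccng1 and Cdkn1a, the genes with a site of 20 bases in their promoter windows, had fitted values on opposite sides of 0. Neither was called, and a link between site and value was not tested. Zmat3, which encodes a zinc-finger protein that binds RNA, had 8.84, 10.1, 8.70 and 9.44 CPM in RA+Dipy muscle, against 8.96, 10.3, 8.83 and 4.31 CPM in RA muscle. Only RA replicate 4 lay outside the narrow range of the other 7 libraries, and the log2 fold change of 0.19 (SE 0.28) was 0.00191 without it.

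Bax and Bbc3 act in mitochondrial cell death. Bax forms the pore in the outer mitochondrial membrane, and Bbc3 encodes PUMA, which frees Bax from its inhibitors. Bbc3 had 2.18, 2.25, 2.50 and 2.2 CPM in RA+Dipy muscle, against 3.53, 2.17, 3.51 and 3.04 CPM in RA muscle. RA replicate 2 lay below all treated libraries but 0 of the other RA libraries did, so the groups overlapped through 1 library. The log2 fold change was −0.42 (SE 0.26), and −0.40 without both libraries that stood apart. With the GC offset it was 0.11 (SE 0.29), and Bbc3 has the highest transcript GC content of the 10, at 65.2%. Bax had 16.4, 10.7, 9.78 and 8.64 CPM in RA+Dipy muscle, against 13.8, 10.1, 14.1 and 15.5 CPM in RA muscle. RA+Dipy replicate 1 was the highest of all 8 libraries, and the groups overlapped. Its log2 fold change was −0.24 (SE 0.27), −0.38 without both libraries that stood apart and 0.30 with the GC offset, at a GC content of 63.5%. Of the exon bases of Bax, 12.2% are shared with another gene on the same strand.

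Aen encodes a nuclease that p53 induces during apoptosis. It had 6.20, 29.9, 23.1 and 26.4 CPM in RA+Dipy muscle, against 25.7, 31.3, 26.7 and 7.01 CPM in RA muscle. The low values were those of the libraries that stood apart, 1 in each group, and the other 6 lay close together. The log2 fold change was −0.08 (SE 0.52), and −0.07 without both.

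Eda2r encodes a receptor of the TNF receptor family for ectodysplasin A2, whose signalling has been linked to muscle wasting in mice. It had 14.5, 11.3, 16.2 and 11.5 CPM in RA+Dipy muscle, against 5.42, 18.8, 8.83 and 3.38 CPM in RA muscle. RA replicate 2 was the highest of all and the other RA libraries were the lowest of all, so the groups overlapped through 1 library. The log2 fold change was 0.55 (SE 0.46) and 0.26 without both libraries that stood apart. It ranged from 0.30 to 1.18 as each library was left out, with the upper end without RA replicate 2. Phlda3, an inhibitor of Akt at the membrane, had 433, 344, 248 and 230 CPM in RA+Dipy muscle, against 272, 254, 287 and 330 CPM in RA muscle. Both the highest and the lowest library were RA+Dipy ones, and the log2 fold change was 0.13 (SE 0.28), 0.02 without both libraries that stood apart and 0.62 (SE 0.29) with the GC offset. Trp53inp1, a stress protein that promotes p53 activity and autophagy, had 7.52, 6.76, 8.04 and 7.84 CPM in RA+Dipy muscle, against 4.41, 13.1, 9.92 and 4.48 CPM in RA muscle. The treated libraries lay between the RA ones, and the log2 fold change of −0.08 (SE 0.36) was −0.25 without both libraries that stood apart and ranged from −0.29 to 0.26 as each library was left out.

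**Figure D2:**
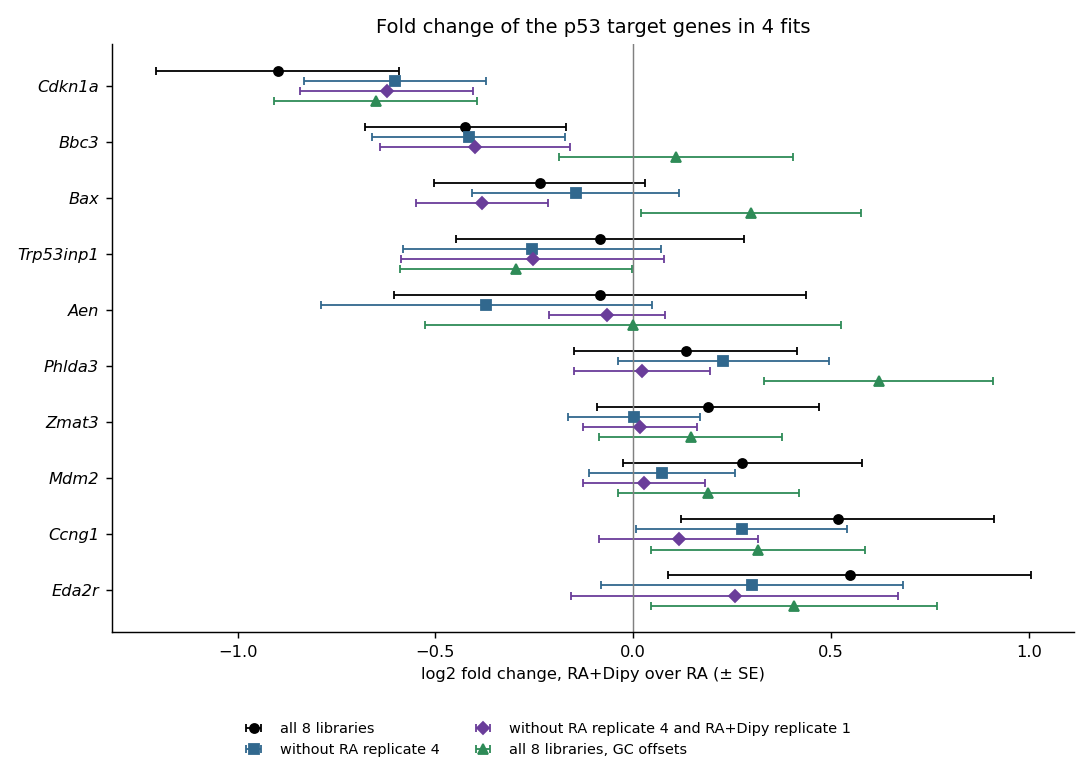
Log2 fold change of RA+Dipy over RA (horizontal axis, whiskers for SE) for the 10 p53 target genes, from fits to all 8 libraries, to the libraries without RA replicate 4, to those without RA replicate 4 and RA+Dipy replicate 1, and to all 8 with an offset for GC content. Cdkn1a lies between −0.90 and −0.60 in the 4 fits, Bax and Bbc3 cross 0 with the GC offset, and Mdm2, Zmat3 and Ccng1 move towards 0 without RA replicate 4.

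The 10 genes differed among themselves in how the libraries that stood apart read. RA replicate 4 was the lowest RA library for 5 of them (Mdm2, Ccng1, Eda2r, Zmat3 and Aen) and the highest for 3 (Cdkn1a, Bax and Phlda3). The log2 ratio of RA replicate 4 to the median of the other RA libraries ran from −1.93 for Aen and −1.63 for Ccng1 to 1.11 for Cdkn1a. The 3 genes in which this library was the highest have transcript GC contents of 54.4%, 63.5% and 62.6%, and the 5 in which it was the lowest lie between 40.8% and 51.6%. Aen, at 51.6%, lies among genes with GC between 47.3% and 53.5%, whose median deviation in RA replicate 4 was −0.10. For the high-GC genes, which include Cdkn1a, that median was 0.45. In RA+Dipy replicate 1 the log2 ratio of Aen to the median of the other treated libraries was −2.09. The part of GC content in these ratios was not tested. In Bbc3 and Trp53inp1, with the highest and lowest GC contents of the 10 at 65.2% and 38.8%, RA replicate 4 was neither the highest nor the lowest RA library. For Trp53inp1 the log2 ratio of RA replicate 4 was −1.15, at 4.48 CPM, close to the 4.41 CPM of RA replicate 1, the lowest. That of Bbc3 was −0.21, below 0 despite its high GC content. The part of RA replicate 4 in the values of each gene beyond the fits without it was not tested. RA+Dipy replicate 1 was the highest treated library for 5 genes and the lowest for 2, Bbc3 and Aen.

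**Figure D3:**
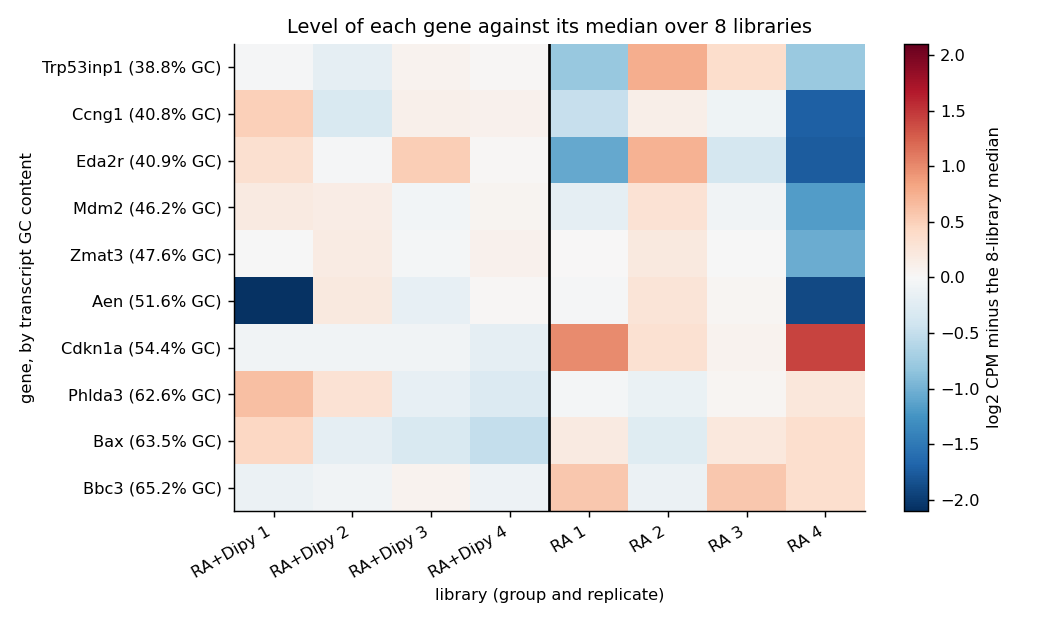
Level of each p53 target gene in each library as log2 CPM minus the gene's median over the 8 libraries (colour scale, symmetric about 0), with RA+Dipy libraries left of the black line, RA libraries right of it, and genes ordered from low to high transcript GC content. Cdkn1a is red in RA replicates 1 and 4, where the low-GC genes Ccng1 and Eda2r are blue, and Aen is dark blue in RA+Dipy replicate 1 and RA replicate 4.

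The SD of log2 CPM was smaller in RA+Dipy than in RA for 7 of the 10 genes (70%), beside 61.9% of all genes tested, and for 8 of the 10 beside 63.9% of all genes without the libraries that stood apart. Levels can be set side by side between genes per kilobase of exon. On that scale Ccng1, at 239 ± 54.6 CPM per kb in RA+Dipy and 167 ± 74.8 in RA, and Phlda3, at 201 ± 60.1 in RA+Dipy and 183 ± 21 in RA, were far above the other 8 and did not differ from each other beyond their spread. In RA+Dipy Mdm2 followed at 9.77 ± 0.742 CPM per kb in RA+Dipy and 8.06 ± 3.03 in RA, then Bax at 7.22 ± 2.2 in RA+Dipy and 8.50 ± 1.44 in RA. Cdkn1a, at 5.48 ± 0.223 CPM per kb in RA+Dipy and 10.2 ± 4.38 in RA, ranked below Bax in RA+Dipy and above Mdm2 in RA, in each case by less than the spread. Aen, Eda2r, Trp53inp1, Bbc3 and Zmat3 averaged between 0.810 and 3.69 CPM per kb in RA+Dipy and between 0.707 and 3.91 in RA.

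The likeness of each gene's pattern to that of Cdkn1a was measured as the root-mean-square difference between standardised log2 CPM, which is 0 for the same shape and 1.87 at most over 8 libraries. Bbc3, at 0.839, and Bax, at 0.92, were the listed targets most like Cdkn1a, against a median of 1.36 over all genes. Ccng1 and Eda2r, at 1.8, and Mdm2, at 1.78, lay near the other end of the scale. Over the 6 libraries without those that stood apart, Bax had 0.775, Bbc3 0.823, Eda2r 1.64 and Ccng1 1.65, against a median of 1.29. The genes closest to Cdkn1a were Xrra1 (0.157), Acad10 (0.213), Itga7 (0.237), Grin3b (0.237) and Apbb3 (0.238) over 8 libraries. Over 6 libraries they were Rbms1 (0.05), Actn3 (0.136), Map11 (0.172), Tra2a (0.174) and G3bp1 (0.181), with 0 genes shared by the 2 lists.

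The rest of the pathway was taken from 4 lists of 63 genes, of which 52 passed the filter, and edgeR called 0 of them in either direction at an adjusted p under 0.05. By value, 30 were higher and 22 lower in RA+Dipy. Their median was 0.11 on the log2 scale. Among p53 and its regulators, 10 of 14 tested genes had higher and 4 lower values, and 0 had an unadjusted p under 0.05. Trp53, the gene of p53 itself, had 6.07, 15.6, 14.9 and 13.2 CPM in RA+Dipy muscle, against 18.1, 14.5, 13.8 and 5.66 CPM in RA muscle. The groups overlapped and the lowest values were again those of the libraries that stood apart, with a log2 fold change of −0.07 (SE 0.39), and −0.08 without both. Mdm4, the partner of Mdm2 in holding p53 down, averaged 15.9 ± 3.26 CPM in RA+Dipy and 16.2 ± 4.46 CPM in RA. Atm, the kinase that signals DNA breaks to p53, had the highest log2 fold change of the regulators at 0.69 (SE 0.45), and 0.80 without both libraries. Hipk2, a kinase that phosphorylates p53, had −0.55 over all 8 libraries 0.38 without RA replicate 4 and 0.11 without both.

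Of the other p53 targets, 38 of 46 listed were tested, 20 with higher and 18 with lower values and a median log2 fold change of 0.05, beside 0.02 over all genes. Ptp4a3, a phosphatase that p53 induces, was the gene of the arrest and repair list with the smallest p. It had 339, 691, 569 and 546 CPM in RA+Dipy muscle, against 1092, 775, 879 and 1516 CPM in RA muscle. All RA+Dipy libraries lay below all RA libraries, with a log2 fold change of −0.99 (SE 0.33, edgeR unadjusted p = 0.0133, adjusted p = 0.882), and −0.60 without both libraries that stood apart. Slc19a2, a thiamine transporter, had 4.62, 4.58, 4.93 and 5.32 CPM in RA+Dipy muscle, against 3.13, 3.67, 3.32 and 1.94 CPM in RA muscle. All RA+Dipy libraries lay above all RA libraries, with a log2 fold change of 0.68 (SE 0.25, edgeR unadjusted p = 0.0231, adjusted p = 0.882), and 0.56 without both libraries that stood apart. Groups apart in the higher direction were found in 1.46% of all genes tested. Btg2, which restrains cell division, averaged 14.6 ± 5.26 CPM in RA+Dipy and 25.1 ± 15.5 CPM in RA, a log2 fold change of −0.78 (SE 0.42) that was −0.25 without RA replicate 4 and −0.06 without both. In the cell death list, 6 of 10 tested genes had higher values and 4 lower, with a median of 0.24 that was −0.03 without both libraries. Tnfaip8, a regulator of cell survival, had a log2 fold change of 0.74 (SE 0.35) over 8 libraries, 0.35 without RA+Dipy replicate 1 and 0.38 without both. The death receptor Fas had 0.46 over 8 libraries, 0.24 without RA+Dipy replicate 1 and −0.03 without both. In the list of metabolism, redox and secreted factors, 5 of 14 had higher values and 9 lower, and the median was −0.08 over 8 libraries and 0.17 without both.

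**Figure D4:**
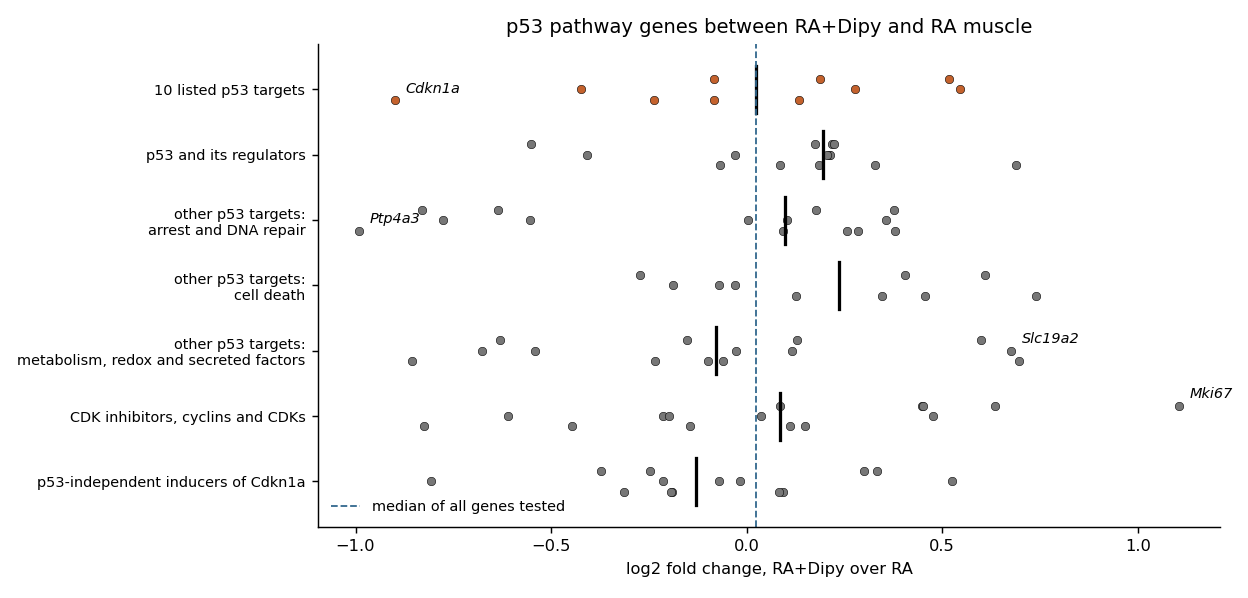
Log2 fold change of RA+Dipy over RA (horizontal axis) for every tested gene of 7 lists, with 1 point per gene, orange for the 10 listed p53 targets, a black bar for each list's median and a dashed line for the median of all genes. Each list spreads to both sides of 0, and Cdkn1a at −0.90, Ptp4a3 at −0.99, Slc19a2 at 0.68 and Mki67 at 1.11 are labelled.

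The cell cycle genes on which p21 acts and the known p53-independent inducers of Cdkn1a were read beside these lists. Of 15 tested cyclins, cyclin-dependent kinases, their inhibitors and Mki67, 9 had higher and 6 lower values. Mki67, a marker of dividing cells, had 0.924, 1.11, 0.885 and 1.04 CPM in RA+Dipy muscle, against 0.394, 0.677, 0.273 and 0.507 CPM in RA muscle. All RA+Dipy libraries lay above all RA libraries at this low level, with a log2 fold change of 1.11 (SE 0.36, edgeR unadjusted p = 0.0108, adjusted p = 0.882), and 1.18 without both libraries that stood apart. Mki67 is described because its p was the smallest of the 15, and it dropped out under a filter of at least 1 CPM on average. Of the 15 genes 1 had groups apart in the higher direction, beside 1.46% of all genes tested. Cdk1, Ccne1, Ccna2 and Ccnb1 did not pass the filter. Of 14 p53-independent inducers, 5 had higher and 9 lower values, and 0 had an unadjusted p under 0.05. Myog, the myogenic factor of differentiation and denervation, averaged 5.11 ± 0.968 CPM in RA+Dipy and 9.0 ± 5.01 CPM in RA, a log2 fold change of −0.81 (SE 0.39, edgeR unadjusted p = 0.0675). RA replicate 4 held its highest value, 15.7 CPM, and without this library the log2 fold change was −0.39. Myod1 had −0.31 over 8 libraries, −0.14 without RA replicate 4 and −0.04 without both.

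Markers of other cells in the muscle were read by value beside these genes. For each cell type the ranges of the RA+Dipy and RA sums overlapped. Of 5 endothelial markers 3 had higher and 2 lower values in RA+Dipy, and of 3 erythroid markers 2 had higher and 1 lower. All 5 Schwann cell markers had lower values, summing to between 114 and 203 CPM in RA+Dipy and between 171 and 465 CPM in RA. Of 8 macrophage markers 7 had higher values, summing to between 150 and 316 CPM in RA+Dipy and between 112 and 267 CPM in RA. All 5 adipocyte markers had higher values, with sums between 281 and 809 CPM in RA+Dipy and between 212 and 344 CPM in RA. RA+Dipy replicate 4 stood out among them, with Adipoq at 101 CPM against 19.9 to 22.9 CPM in the other RA+Dipy libraries, and Plin1 at 74.6 CPM against 4.09 to 13.8 CPM. The 3 tested satellite cell markers had lower values, and all 4 listed summed to between 16.8 and 25.4 CPM in RA+Dipy and between 23.2 and 35.2 CPM in RA. Fibroblast markers were higher in 4 of 6 and summed to between 1320 and 2450 CPM in RA+Dipy and between 1020 and 2340 CPM in RA. The 7 T and B cell markers, of which 1 passed the filter, summed to between 1.39 and 2.0 CPM in RA+Dipy and between 1.46 and 3.3 CPM in RA. The 4 neutrophil markers, of which S100a9 passed with a log2 fold change of 0.86 (SE 0.67), summed to between 0.702 and 3.23 CPM in RA+Dipy and between 0.273 and 1.61 CPM in RA. Among them S100a8 had 24, 6, 10 and 13 counts in RA+Dipy and 11, 2, 4 and 3 counts in RA, Retnlg was detected in every library, and Ly6g had 0 counts in all but RA replicate 4, which had 2. The part of these cells in the levels of Cdkn1a and the other targets was not tested.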

How the data were processed

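The authors deposited raw read counts per protein-coding gene for each library, 1 table per mouse, and samples were grouped by their titles. According to the series' design text and the submitters' processing notes, reads (single, 100 nt) went through fastp 0.20.0, then STAR 2.7.3a against GRCm38.p6, then HTSeq in its mode without strand. No annotation release is named there. The library kit is TruSeq by the labels and a directional NEBNext kit by the design text. Counting without strand cannot tell apart the reads of genes whose exons overlap on opposite strands.

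From the deposited counts, genes were kept by filterByExpr of edgeR 4.0.16 (minimum count 10), scaled by TMM and compared with the quasi-likelihood test in R 4.3.3, two-sided, with Benjamini-Hochberg adjustment over all 12755 genes and a threshold of 0.05. The code was tested on simulated data with less spread between replicates than in these libraries and with no library that stood apart. That test checks the code and does not show which changes could be called at the spread seen here. No 2 libraries of a group agreed within sampling noise. Positions, exon overlaps and GC content come from GENCODE vM21 (GRCm38), and promoter windows from RefSeq. The members and lists were chosen with earlier results of these data known. Named genes are the 10 targets, the tested p53 regulators, up to 4 genes of smallest p per other pathway list and the 5 most like Cdkn1a over 8 and over 6 libraries, not all of which are described. Alternatives were other scalings and filters, DESeq2 1.42.0, limma-voom (limma 3.58.1), a replicate block and libraries left out. The GC offset was chosen after seeing the data.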

Additional observations from a re-analysis of the deposited data

Results flagged for a closer look

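Of 108 groups of 4 libraries for the 54 named genes, 11 had 1 library far from the other 3. Chance gives about 1 in 20 (5%) for genes named without regard to their values. That rate does not hold for genes picked by p or by likeness to Cdkn1a. Rbms1, Actn3 and Map11 were picked for likeness to Cdkn1a without RA+Dipy replicate 1. Cdkn1a is nearly equal in the other RA+Dipy libraries, so such a pick favours a flag in that library. Among the 20 groups of the listed p53 targets 1 had a library far from the rest: Cdkn1a in RA+Dipy replicate 4, at 18.3 CPM, below the 19.8 to 19.9 CPM of the other 3. The gap is small, since these 4 libraries are nearly equal. RA+Dipy replicate 1 held 4 of the 11. Trp53bp1 was at 2.90 CPM there against 11.9 to 13.2 CPM in the other RA+Dipy libraries, and Rbms1 at 83.4 CPM against 28.2 to 29.6 CPM. Actn3 was at 4140 CPM against 8840 to 9150 CPM, and Map11 at 1.78 CPM against 3.16 to 3.40 CPM. RA replicate 4 held another 4. Usp7 was at 143 CPM there against 66.7 to 76.8 CPM in the other RA libraries, and Hipk2 at 105 CPM against 21 to 27.2 CPM. Cop1 was at 20.5 CPM against 40.2 to 42.5 CPM, and Btg2 at 48.1 CPM against 13.7 to 19.4 CPM. The rest were Dram1 in RA+Dipy replicate 4, at 8.96 CPM against 3.77 to 4.16 CPM, and Ep300 in RA replicate 2, at 38.0 CPM against 20.7 to 23.1 CPM.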

How the results depend on the processing

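Under 19 other settings and 1 added after seeing the data (the GC offset), Cdkn1a kept a lower value in RA+Dipy, between −1.08 and −0.60 on the log2 scale as each library was left out and −0.53 with library weights in limma-voom. The count of genes called was 0 except with those weights, where it was 133 and Cdkn1a had an adjusted p of 0.106. By limma-voom with those weights the adjusted p was 0.0809 for Bax, 0.0851 for Eda2r and 0.108 for Bbc3. The number of the 10 targets with a lower value was 5, and ran from 3 (without RA replicate 2) to 5 as each library was left out. It was 2 with the GC offset, under which Bax, Bbc3 and Aen had values above 0; the cause was not tested. With the replicate number as a block, 0 genes were called, 165 had an unadjusted p under 0.05 and Cdkn1a had −0.80. Libraries with the same number did not deviate together (r between −0.27 and 0.15), so the numbers were not taken as pairs. Of the refitted fold changes of the 53 named genes besides Cdkn1a, 12 moved by more than the spread between replicates and 1045 did not, 9 of the 12 with the GC offset. That spread was the SD of single libraries within groups over all 8 libraries, not the SE of the fold change. Leaving out 1 library can seldom shift a fold change that far, so these counts do not test how stable the values are. The biological coefficient of variation was 0.386 over 8 libraries and 0.183 without the pair that stood apart, and 4 mice per group limit what can be called.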
